A study of Homo sapiens with 10 samples.

Results

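The genes described here are antisense long non-coding RNA (lncRNA) genes, recognised by a symbol that ends in -AS1, together with the sense genes after which they are named. The -AS1 genes were chosen by their level: of 1635 such genes in the count tables, 293 had a mean of at least 1 CPM (counts scaled to the total of each library) over all 10 libraries, and these 293 are called members below. The tables hold 63299 genes in all, of which 56948 had a symbol in GENCODE release 44. The sense gene of a member is the gene whose symbol remains when -AS1 is removed. Every member had such a sense gene in the tables, and it serves only for comparison.

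The libraries come from U2OS, a human osteosarcoma cell line. Cells received either pooled control siRNA (siCtrl) or pooled siRNA against DDX41 (siDDX41), a DEAD-box RNA helicase, and RNA was collected 48 h later. Polyadenylated RNA was sequenced from 5 libraries per group, with 21807041 to 24896398 counts in a library, so that 1 CPM corresponds to 21.8 to 24.9 counts. The labels do not say that the libraries came from separate cultures, so the p-values measure only the spread between these libraries, which may be technical.

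Antisense lncRNA genes are transcribed from the strand opposite to another gene, and many start close to the start of that gene, from a promoter that fires in both directions. Some act on the neighbouring gene in cis, through the act of transcription, through chromatin regulators or by pairing with the sense RNA, while others act elsewhere in the cell or have no known function. Many such transcripts are short-lived because the nuclear exosome and its adaptors degrade them, so their level depends on decay as well as on synthesis.

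The knocked-down gene was examined first. DDX41 had 48.9, 49.7, 47.7, 47.1 and 50.8 CPM in the 5 siCtrl libraries and 11.4, 13.7, 12.4, 11.0 and 12.2 CPM in the 5 siDDX41 libraries. Every siDDX41 library lay below every siCtrl library, as the labels state. The means were 48.8 ± 1.49 CPM with siCtrl and 12.2 ± 1.04 CPM with siDDX41 (SD, n = 5 each), a fall between the groups (log2 fold change -1.99, SE 0.049, Benjamini-Hochberg adjusted p = 4.47e-24 in the edgeR quasi-likelihood test).

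The levels of marker genes were set against the stated cell line. In RPKM (CPM per kilobase of exon), the mesenchymal and bone genes SPARC, VIM and COL1A1 stood at 607, 478 and 209 in siCtrl cells, the osteoblast regulator RUNX2 at 3.97 and the bone matrix gene SPP1 at 2.63. Of these 6 bone and mesenchymal genes with COL1A2, SPARC and SPP1 were called higher with siDDX41 (log2 fold change 0.18 and 0.66), VIM and RUNX2 were called lower (-0.087 and -0.40), COL1A1 was not called and COL1A2 was not tested. COL1A2, which encodes the second chain of type I collagen, was near 0 at 0.450 ± 0.205 CPM (SD, n = 5) in siCtrl cells. Of the 6 marker genes of other lineages, 2 were called lower, none was called higher, 3 were not called and 1 (ALB) was not tested. Their summed level was 40.2, 38.1, 41.9, 42.4 and 41.4 CPM in the siCtrl libraries and 14.4, 16.3, 14.1, 14.9 and 14.5 CPM in the siDDX41 libraries, and CD34 had the most counts of them in siCtrl cells. CD34, a marker of blood stem cells and endothelium, had 30.5 ± 1.46 CPM with siCtrl and 4.64 ± 0.888 CPM with siDDX41 (SD, n = 5 each) (log2 fold change -2.71, SE 0.08, Benjamini-Hochberg adjusted p = 5.27e-20 in the edgeR quasi-likelihood test), and the endothelial cadherin CDH5 had 1.03 ± 0.262 CPM with siCtrl and 0.354 ± 0.138 CPM with siDDX41 (SD, n = 5 each) (log2 fold change -1.49, SE 0.26, Benjamini-Hochberg adjusted p = 8.54e-06 in the edgeR quasi-likelihood test). EPCAM, another of these genes, had 8.01 ± 0.445 CPM with siCtrl and 8.27 ± 0.779 CPM with siDDX41 (SD, n = 5 each) and was not called. In siCtrl cells CD34 stood at 3.31 RPKM and EPCAM at 3.30 RPKM, above SPP1 and below RUNX2. CDH1 had 0.877 CPM on average in siCtrl cells. The leukocyte marker PTPRC stayed at or below 0.633 CPM, and ALB was at 0 in 3 of the 10 libraries. The part of these markers in the changes of the members was not tested.

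The deposited tables do not state whether reads were counted by strand, although the libraries were made with a stranded kit. Genes wholly inside the exons of others were counted for this question. Of 618 genes that lie wholly inside exons of genes on the other strand, 341 had at least 1 count and 22 had at least 100 counts over the 10 libraries, and the 618 genes held 15328 counts in all. Of 795 genes wholly inside exons of the same strand, where strand gives no separation, 154 had at least 1 count and 41 at least 100, with 37228 counts in all, so counts in such genes do not settle the strand setting. A lncRNA gene inside exons of GAPDH on the other strand held 934 counts against 1234612 for GAPDH, or 0.430% of the GAPDH counts per exon base. The setting is not given, and carry-over from an abundant sense gene cannot be told apart from antisense RNA where exons overlap. This bears on 221 members that share at least 1 exon base with their sense gene, for which the shared part had a median of 10.0% of the exon bases of the member.

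All 293 members passed the expression filter and were tested, as were 258 of the 293 sense genes. The remaining 35 sense genes, such as PDE7B, KLRK1 and RAB6C, had too few counts, with at most 0.460 CPM on average. Release 44 describes 287 members as lncRNA genes and 6 as transcribed pseudogenes, among them SVIL-AS1 and RAB6C-AS1. For these 6 the identifier in the tables now marks a short pseudogene or other model, so their arrangement and their level per length are not given. The members were mostly scarce, with a median of 3.07 CPM over the 10 libraries. Per length, the member was the lower gene in most pairs. Among pairs with a test of both genes and a length for both, the member had the higher RPKM in siCtrl cells in 45, and over such members the median was 1.12 RPKM against 6.47 RPKM for the sense genes.

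With siDDX41, 73 members were called higher and 89 were called lower at a Benjamini-Hochberg adjusted p under 0.01 in the edgeR quasi-likelihood test, and 131 were not called. These are 24.9% and 30.4% of the members. Among all 16143 tested genes, 30.3% were called higher and 32.1% lower, and among the 14163 tested genes with a mean of at least 1 CPM the shares were 32.9% and 33.7%. Among the 918 other lncRNA genes at or above 1 CPM, 23.3% were called higher and 26.9% lower. Among genes that share no exon base with another counted gene, the shares were 38.2% and 32.7% of 55 members and 26.0% and 25.6% of 493 other lncRNA genes, a difference that was not tested. The median log2 fold change of the members was -0.036, beside -0.0014 for all tested genes and -0.022 for the other lncRNA genes. In bulk libraries, a change in the number of cells that hold an RNA and a change in its amount per cell cannot be told apart.

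Large changes were counted at both ends. A call with a log2 fold change above 1 was made for 7 members (2.39%) and one below -1 for 20 members (6.83%), beside 2.54% and 6.08% of all tested genes and 5.45% and 5.88% of the other lncRNA genes at or above 1 CPM. Among all tested genes at or above 1 CPM, the shares were 1.96% and 4.94%. For large increases, the share in the members lay between those of all tested genes at or above 1 CPM and of the other lncRNA genes. These differences were not tested. Since the level is a mean over both groups, 4 of the 7 had less than 1 CPM on average with siCtrl and 12 of the 20 less than 1 CPM with siDDX41, and they became members through the group in which they were higher. Among the other lncRNA genes with such changes, this held for 17 of the 50 called higher and 24 of the 54 called lower. None of the 258 tested sense genes was called with a log2 fold change above 1, and 15 (5.81%) were called below -1. The CPM values of siCtrl and siDDX41 did not overlap for 143 members (48.8%), beside 56.0% of all tested genes and 43.4% of the other lncRNA genes. Calls became more frequent with the level. Of the 98 members between 1 and 2 CPM, 18 were called higher and 27 lower, while of the 64 members of 10 CPM or more, 26 were called higher and 20 lower. Other lncRNA genes of the same levels gave 57 and 80 of 357, and 53 and 54 of 149.

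**Figure D1:**
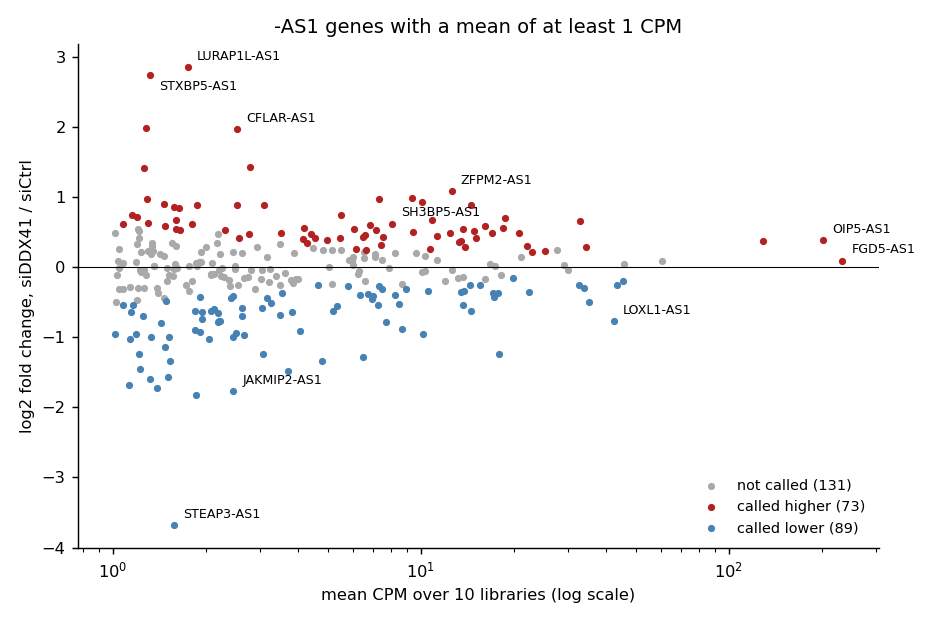
Mean CPM over the 10 libraries (x axis, log scale) and log2 fold change of siDDX41 over siCtrl (y axis) for the 293 members, 1 point each. Red points are the 73 members called higher, blue points the 89 called lower and grey points the 131 not called, and the points farthest from 0, STEAP3-AS1 at -3.68 and LURAP1L-AS1 at 2.85, belong to members under 2 CPM.

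The level that chose the members has no natural boundary. Just inside it lay PRR7-AS1 with a mean of 1.01 CPM and PDE7B-AS1 with 1.02 CPM, and just outside it C1QTNF1-AS1 with 0.990 CPM and PANK2-AS1 with 0.982 CPM.

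The log2 fold changes of the 8 members with the highest CPM lay between -0.77 (LOXL1-AS1) and 0.39 (OIP5-AS1). FGD5-AS1, which faces the gene of a guanine nucleotide exchange factor for CDC42, was the highest, with 228, 225, 237, 222 and 222 CPM in the 5 siCtrl libraries and 237, 243, 238, 248 and 233 CPM in the 5 siDDX41 libraries. The groups overlapped narrowly, and the rise was small (log2 fold change 0.091, SE 0.027, Benjamini-Hochberg adjusted p = 0.00375 in the edgeR quasi-likelihood test). Its call is not robust, since the adjusted p passed 0.01 without siCtrl replicate 4, siCtrl replicate 5 or siDDX41 replicate 4, where the log2 fold change was 0.085, 0.082 and 0.078. FGD5 itself had 26.4 ± 2.40 CPM with siCtrl and 22.4 ± 1.53 CPM with siDDX41 (SD, n = 5 each) and was called lower (log2 fold change -0.22).

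OIP5-AS1, also known as cyrano and known for promoting the decay of the microRNA miR-7, had 172, 173, 185, 178 and 171 CPM in the 5 siCtrl libraries and 232, 224, 231, 227 and 228 CPM in the 5 siDDX41 libraries. All siDDX41 libraries were above all siCtrl libraries (log2 fold change 0.39, SE 0.027, Benjamini-Hochberg adjusted p = 1.94e-13 in the edgeR quasi-likelihood test). Its sense gene OIP5, which encodes a centromere protein, had 37.1 ± 1.42 CPM with siCtrl and 36.5 ± 1.20 CPM with siDDX41 (SD, n = 5 each), with overlapping groups and no call (log2 fold change -0.0097). Of the exon bases of OIP5, 92.5% are shared with exons on the other strand, so its counts depend on the strand setting. CCDC144NL-AS1 had 114, 110.1, 109, 115 and 118 CPM in the 5 siCtrl libraries and 148, 141, 144, 148 and 143 CPM in the 5 siDDX41 libraries. These groups did not overlap either (log2 fold change 0.37, SE 0.03, Benjamini-Hochberg adjusted p = 4.08e-12 in the edgeR quasi-likelihood test), while CCDC144NL had 30.7 ± 2.28 CPM with siCtrl and 25.7 ± 2.10 CPM with siDDX41 (SD, n = 5 each) and was called lower (log2 fold change -0.25). CCDC144NL belongs to a family of near-identical copies on chromosome 17, so that the split of reads between copies is uncertain.

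LOXL1-AS1, opposite the gene of a lysyl oxidase that cross-links elastin, fell together with its sense gene. It had 51.8, 51.5, 53.2, 58.0 and 52.8 CPM in the 5 siCtrl libraries and 27.8, 34.2, 28.0, 33.2 and 31.9 CPM in the 5 siDDX41 libraries. The groups were clearly apart, with siCtrl replicate 4 above the other siCtrl libraries (log2 fold change -0.77, SE 0.052, Benjamini-Hochberg adjusted p = 3.12e-12 in the edgeR quasi-likelihood test). LOXL1 went from 84.0 ± 6.98 to 35.8 ± 2.97 CPM (SD, n = 5 each), a larger fall (log2 fold change -1.22).

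GAS6-AS1 and TENM3-AS1 fell slightly while their sense genes rose. GAS6-AS1 had 47.2 ± 1.50 CPM with siCtrl and 39.2 ± 2.71 CPM with siDDX41 (SD, n = 5 each) with no overlap between the groups (log2 fold change -0.26, SE 0.042, Benjamini-Hochberg adjusted p = 3.43e-06 in the edgeR quasi-likelihood test), and GAS6, a secreted ligand of the TAM receptor tyrosine kinases, had 107 ± 6.16 CPM with siCtrl and 133 ± 5.95 CPM with siDDX41 (SD, n = 5 each) (log2 fold change 0.32). TENM3-AS1 had 48.8 ± 2.82 CPM with siCtrl and 42.0 ± 2.39 CPM with siDDX41 (SD, n = 5 each), with groups that overlapped in 1 siCtrl library (log2 fold change -0.20, SE 0.044, Benjamini-Hochberg adjusted p = 1.42e-04 in the edgeR quasi-likelihood test), and the teneurin gene TENM3 had 325 ± 16.6 CPM with siCtrl and 392 ± 19.2 CPM with siDDX41 (SD, n = 5 each) (log2 fold change 0.28).

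The 3 members of highest CPM without a call were PSMA3-AS1, SVIL-AS1 and HERPUD2-AS1. PSMA3-AS1 had 58.9 ± 4.26 CPM with siCtrl and 62.0 ± 2.74 CPM with siDDX41 (SD, n = 5 each) (log2 fold change 0.085, SE 0.041, Benjamini-Hochberg adjusted p = 0.0643 in the edgeR quasi-likelihood test), and it gained a call without siCtrl replicate 3 (log2 fold change 0.13). PSMA3, an alpha subunit of the 20S proteasome, was called higher, with 178 ± 6.56 CPM with siCtrl and 229 ± 9.76 CPM with siDDX41 (SD, n = 5 each) (log2 fold change 0.37). SVIL-AS1 had 45.1 ± 2.13 CPM with siCtrl and 45.9 ± 2.42 CPM with siDDX41 (SD, n = 5 each) and HERPUD2-AS1 30.7 ± 1.11 CPM with siCtrl and 29.6 ± 1.16 CPM with siDDX41 (SD, n = 5 each), with adjusted p of 0.425 and 0.387 in the same test. A p above the threshold does not show that their levels were equal.

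Among members with non-overlapping groups, LURAP1L-AS1 had the largest called increase. Like STXBP5-AS1, RAB6C-AS1 and KIF23-AS1, it had under 1 CPM on average with siCtrl and became a member through the siDDX41 libraries. It had 0.488, 0.411, 0.593, 0.342 and 0.293 CPM in the 5 siCtrl libraries and 3.71, 2.44, 3.33, 2.83 and 3.12 CPM in the 5 siDDX41 libraries. The lowest siDDX41 library was far above the highest siCtrl library (log2 fold change 2.85, SE 0.19, Benjamini-Hochberg adjusted p = 3.12e-14 in the edgeR quasi-likelihood test). STXBP5-AS1 starts inside STXBP5, near the start of that gene, which encodes tomosyn, an inhibitor of SNARE-driven vesicle fusion. STXBP5-AS1 had 0.325, 0.657, 0.170, 0.427 and 0.126 CPM in the 5 siCtrl libraries and 2.61, 2.22, 2.13, 2.49 and 2.02 CPM in the 5 siDDX41 libraries. The siCtrl values rest on few counts and vary, yet all lie below the siDDX41 values (log2 fold change 2.73, SE 0.23, Benjamini-Hochberg adjusted p = 1.10e-11 in the edgeR quasi-likelihood test). STXBP5 rose as well, from 34.4 ± 1.67 to 51.0 ± 0.792 CPM (SD, n = 5 each, log2 fold change 0.58).

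CFLAR-AS1 lies inside CFLAR, the gene of the caspase-8 regulator c-FLIP. It had 0.935, 1.03, 0.932, 1.03 and 1.26 CPM in the 5 siCtrl libraries and 3.94, 4.17, 4.18, 4.05 and 3.75 CPM in the 5 siDDX41 libraries. Each siDDX41 library was well above each siCtrl library (log2 fold change 1.96, SE 0.12, Benjamini-Hochberg adjusted p = 1.84e-14 in the edgeR quasi-likelihood test). CFLAR rose by a smaller factor, with 44.0 ± 1.45 CPM with siCtrl and 51.3 ± 2.24 CPM with siDDX41 (SD, n = 5 each) (log2 fold change 0.23). Of the exon bases of CFLAR-AS1, 17.9% are shared with CFLAR on the other strand.

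SIPA1L1-AS1 starts inside SIPA1L1, which encodes a GTPase-activating protein for Rap. It had 1.38, 1.44, 1.61, 1.62 and 1.51 CPM in the 5 siCtrl libraries and 4.31, 3.61, 3.53, 4.26 and 4.51 CPM in the 5 siDDX41 libraries. The groups stood apart (log2 fold change 1.43, SE 0.12, Benjamini-Hochberg adjusted p = 1.12e-11 in the edgeR quasi-likelihood test), whereas SIPA1L1 was not called, with 195 ± 10.5 CPM with siCtrl and 199.8 ± 6.02 CPM with siDDX41 (SD, n = 5 each) (log2 fold change 0.045, Benjamini-Hochberg adjusted p = 0.215 in the edgeR quasi-likelihood test). KIF23-AS1 lies head-to-head with KIF23, the gene of a kinesin of the central spindle in cytokinesis, and had 0.650, 0.657, 0.551, 0.940 and 0.670 CPM in the 5 siCtrl libraries and 1.83, 1.70, 1.61, 2.193 and 1.85 CPM in the 5 siDDX41 libraries. All siDDX41 values were above all siCtrl values (log2 fold change 1.41, SE 0.17, Benjamini-Hochberg adjusted p = 2.82e-08 in the edgeR quasi-likelihood test). KIF23 moved the other way, from 335 ± 8.15 to 296 ± 8.40 CPM (SD, n = 5 each, log2 fold change -0.17).

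ZFPM2-AS1 had the highest CPM of the 7 strongly raised members. It had 8.21, 8.38, 8.18, 8.85 and 6.91 CPM in the 5 siCtrl libraries and 18.7, 17.7, 15.8, 15.6 and 17.3 CPM in the 5 siDDX41 libraries. The groups were widely separated (log2 fold change 1.08, SE 0.068, Benjamini-Hochberg adjusted p = 1.58e-14 in the edgeR quasi-likelihood test). ZFPM2, which encodes the GATA cofactor FOG2, had 6.81 ± 0.744 CPM with siCtrl and 6.52 ± 0.637 CPM with siDDX41 (SD, n = 5 each) and was not called (log2 fold change -0.054). RAB6C-AS1 had 0.325, 0.616, 0.636, 0.641 and 0.377 CPM in the 5 siCtrl libraries and 2.29, 2.00, 1.97, 1.90 and 2.07 CPM in the 5 siDDX41 libraries, again without overlap (log2 fold change 1.98, SE 0.18, Benjamini-Hochberg adjusted p = 8.37e-11 in the edgeR quasi-likelihood test). RAB6C was not tested, at 0.409 ± 0.0961 and 0.391 ± 0.196 CPM (SD, n = 5 each). Its siDDX41 replicate 1 had 0.734 CPM, against 0.241 to 0.348 CPM in the other siDDX41 libraries.

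STEAP3-AS1 showed the largest decrease of all members. Like RASAL2-AS1, TIAM1-AS1, NAPA-AS1, ZMIZ1-AS1 and RAMP2-AS1, it had under 1 CPM on average with siDDX41 and became a member through the siCtrl libraries. The gene lies on the minus strand at chr2:119244422-119270714 (GRCh38) and overlaps the end of STEAP3, which encodes a ferrireductase of the endosomal iron uptake pathway. It had 2.52, 3.04, 3.35, 2.91 and 2.85 CPM in the 5 siCtrl libraries and 0.183, 0.174, 0.161, 0.127 and 0.464 CPM in the 5 siDDX41 libraries. The siDDX41 libraries hold only a few counts each, and siDDX41 replicate 5 is higher than the other 4, but all are far below the siCtrl libraries (log2 fold change -3.68, SE 0.22, Benjamini-Hochberg adjusted p = 3.71e-15 in the edgeR quasi-likelihood test). STEAP3 fell too, with 272, 272, 254, 269 and 274 CPM in the 5 siCtrl libraries and 108, 122, 115, 114 and 117 CPM in the 5 siDDX41 libraries. Its groups did not overlap either (log2 fold change -1.21, SE 0.031, Benjamini-Hochberg adjusted p = 1.25e-23 in the edgeR quasi-likelihood test). Within libraries, the log2 ratio of STEAP3-AS1 to STEAP3, each with 0.1 CPM added, went from -6.47 ± 0.18 to -8.57 ± 0.50 (SD, n = 5 each), a change of -2.10. The size depends on the added value, since the siDDX41 values are close to 0.1 CPM, and with 0.5 CPM added the change was -1.05. The pair was chosen for the fall of the member, so the ratio describes it and is no test.

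RASAL2-AS1 starts next to RASAL2, the gene of a Ras GTPase-activating protein. It had 2.93, 3.00, 3.01, 2.91 and 2.72 CPM in the 5 siCtrl libraries and 1.01, 0.478, 0.964, 0.928 and 0.674 CPM in the 5 siDDX41 libraries. The groups were far apart (log2 fold change -1.83, SE 0.16, Benjamini-Hochberg adjusted p = 1.40e-11 in the edgeR quasi-likelihood test). TIAM1-AS1 starts near the start of TIAM1, which encodes an exchange factor for RAC1, and had 2.32, 2.63, 2.16, 2.39 and 1.89 CPM in the 5 siCtrl libraries and 0.688, 0.696, 1.16, 0.717 and 0.506 CPM in the 5 siDDX41 libraries. Again no siDDX41 library reached the lowest siCtrl library (log2 fold change -1.57, SE 0.18, Benjamini-Hochberg adjusted p = 4.70e-09 in the edgeR quasi-likelihood test). TIAM1 had 58.1 ± 2.55 CPM with siCtrl and 57.8 ± 1.83 CPM with siDDX41 (SD, n = 5 each) and was not called (log2 fold change 0.0024).

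JAKMIP2-AS1 and NAPA-AS1 overlap the ends of their sense genes. JAKMIP2-AS1 had 4.15, 3.70, 4.20, 3.21 and 3.86 CPM in the 5 siCtrl libraries and 0.917, 1.35, 1.08, 1.10 and 1.10 CPM in the 5 siDDX41 libraries. All siDDX41 values were lower (log2 fold change -1.77, SE 0.13, Benjamini-Hochberg adjusted p = 7.91e-13 in the edgeR quasi-likelihood test), and JAKMIP2 was also called lower, by less (log2 fold change -0.22). NAPA-AS1 had 1.42, 2.09, 1.44, 1.71 and 1.97 CPM in the 5 siCtrl libraries and 0.367, 0.348, 0.602, 0.506 and 0.801 CPM in the 5 siDDX41 libraries. The groups did not overlap (log2 fold change -1.69, SE 0.21, Benjamini-Hochberg adjusted p = 2.44e-08 in the edgeR quasi-likelihood test), and 36.6% of the exon bases of NAPA-AS1 are shared with NAPA, the gene of alpha-SNAP.

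ZMIZ1-AS1 and RAMP2-AS1 fell together with their sense genes. ZMIZ1-AS1, whose start lies 1071 bases upstream of that of ZMIZ1, had 2.28, 2.14, 2.20, 2.22 and 1.84 CPM in the 5 siCtrl libraries and 0.596, 0.565, 0.763, 0.380 and 0.885 CPM in the 5 siDDX41 libraries. The siDDX41 libraries were all lower (log2 fold change -1.72, SE 0.18, Benjamini-Hochberg adjusted p = 8.32e-10 in the edgeR quasi-likelihood test). ZMIZ1, a transcriptional coactivator gene of the PIAS-like family, had 132 ± 3.67 CPM with siCtrl and 54.6 ± 4.21 CPM with siDDX41 (SD, n = 5 each) (log2 fold change -1.27, SE 0.039, Benjamini-Hochberg adjusted p = 3.72e-21 in the edgeR quasi-likelihood test). The log2 ratio of ZMIZ1-AS1 to ZMIZ1 went from -5.89 ± 0.14 to -6.25 ± 0.38 (SD, n = 5 each, two-sided exact permutation p = 0.0714), with overlapping groups. The change of -0.36 turned to 0.047 with 0.5 CPM added in place of 0.1. It was -0.42 without siCtrl replicate 5 and -0.46 without siDDX41 replicate 5, each with an exact permutation p under 0.05. Over all the fits without 1 library, the change ran from -0.46 to -0.23. The pair was chosen for the fall of the member, so these ratios and p-values describe it and are no independent test.

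RAMP2-AS1 had 1.50, 2.26, 2.46, 2.14 and 1.63 CPM in the 5 siCtrl libraries and 0.550, 0.696, 0.522, 0.717 and 0.759 CPM in the 5 siDDX41 libraries, with siDDX41 lower throughout (log2 fold change -1.60, SE 0.19, Benjamini-Hochberg adjusted p = 8.30e-09 in the edgeR quasi-likelihood test). RAMP2 encodes a partner of the calcitonin receptor-like receptor and had 2.12 ± 0.345 CPM with siCtrl and 0.723 ± 0.152 CPM with siDDX41 (SD, n = 5 each) (log2 fold change -1.53, SE 0.18, Benjamini-Hochberg adjusted p = 6.53e-09 in the edgeR quasi-likelihood test). Their log2 ratio went from -0.093 ± 0.35 to -0.13 ± 0.37 (SD, n = 5 each, two-sided exact permutation p = 0.897), with overlapping groups. A difference between the changes of both genes was not detectable at this depth. This pair, too, was chosen for the fall of the member, so the ratio describes it and is no independent test.

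**Figure D2:**
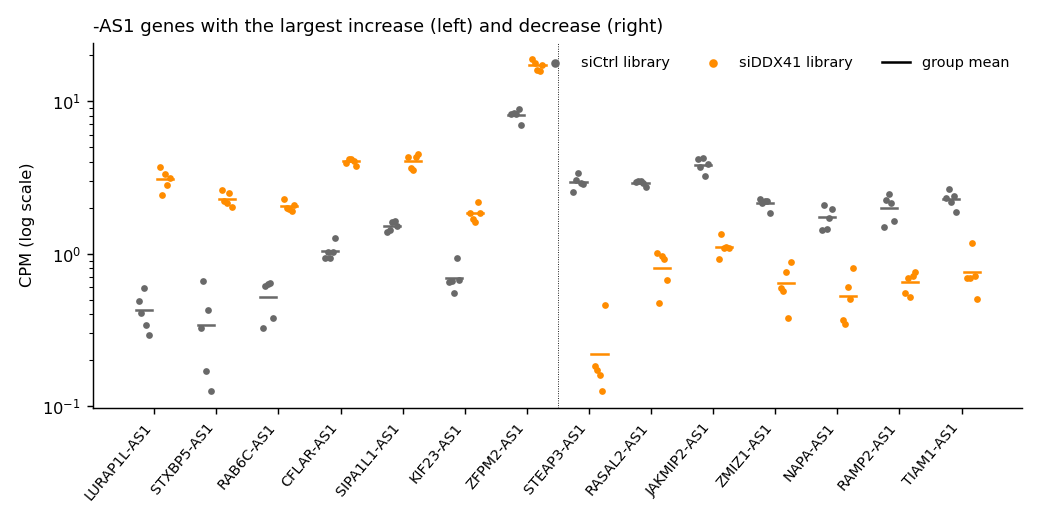
CPM (y axis, log scale) of the 7 members with the largest called increase (left of the dotted line) and the 7 with the largest called decrease (right) among those whose groups do not overlap. Grey points are the 5 siCtrl libraries, orange points the 5 siDDX41 libraries and bars the group means, and for STEAP3-AS1 siDDX41 replicate 5 at 0.464 CPM stands above the other 4 siDDX41 libraries at 0.127 to 0.183 CPM.

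The change of each member was set beside that of its sense gene. Of the 258 pairs with both genes tested, both were called in 92. They moved in the same direction in 51 pairs, of which 16 rose and 35 fell, and in opposite directions in 41 pairs, with the member up and the sense gene down in 21 and the reverse in 20. The sense gene was not called beside 22 members called higher and 23 called lower. Where the member was not called, the sense gene was called higher in 39 pairs, lower in 37 and not called in 45. Whether these counts differ from those of unrelated calls was not tested. Across the 258 pairs, the log2 fold changes had a Spearman correlation of 0.062 and a Pearson correlation of 0.15, which describe pairs of genes measured in the same libraries and are not tests. Of the sense genes, 75 were called higher (29.1%) and 93 lower (36.0%), beside 30.3% and 32.1% of all tested genes. The absolute log2 fold change was larger in the member than in the sense gene in 140 of the 258 pairs. A pair chosen after its values were seen, LMCD1-AS1 and LMCD1, illustrates a joint fall. LMCD1-AS1 had 1.80 ± 0.211 CPM with siCtrl and 0.647 ± 0.0635 CPM with siDDX41 (SD, n = 5 each) (log2 fold change -1.46), and LMCD1, which encodes a LIM domain protein, had 92.8 ± 4.07 CPM with siCtrl and 14.9 ± 2.20 CPM with siDDX41 (SD, n = 5 each) (log2 fold change -2.62).

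**Figure D3:**
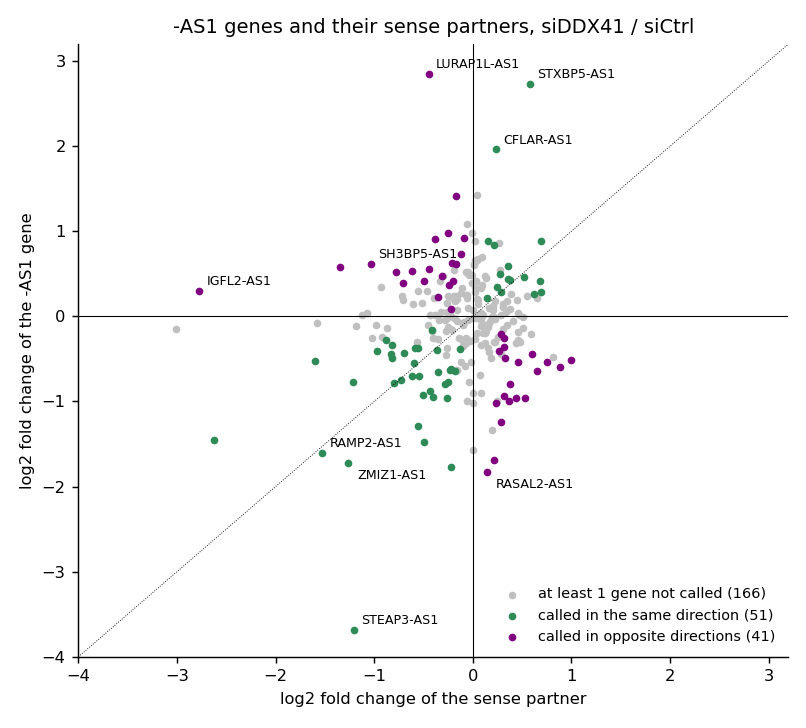
Log2 fold change of the sense gene (x axis) and of the member (y axis), siDDX41 over siCtrl, for the 258 pairs with both genes tested. Green points are the 51 pairs called in the same direction, purple points the 41 called in opposite directions and grey points the other 166, and the points spread over all 4 corners of the plot rather than along the dotted line of equal change.

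The 6 pairs with the largest difference among those called in opposite directions were examined within libraries. LURAP1L had 2.15, 2.05, 2.92, 2.78 and 2.68 CPM in the 5 siCtrl libraries and 2.11, 1.61, 2.25, 1.31 and 1.85 CPM in the 5 siDDX41 libraries. Its groups overlapped and its call was weak (log2 fold change -0.45, SE 0.15, Benjamini-Hochberg adjusted p = 0.00764 in the edgeR quasi-likelihood test). The call of LURAP1L was lost with the DESeq2 test (log2 fold change -0.44), with upper-quartile scaling (-0.43) and without each of siCtrl replicates 3, 4 and 5 and siDDX41 replicates 2, 4 and 5, where the log2 fold change was -0.39, -0.41, -0.43, -0.40, -0.35 and -0.45. The log2 fold change of LURAP1L was negative under every alternative, but the opposite calls of this pair rest on a weak call of the sense gene. Per length, the member went from 0.139 to 1.01 RPKM and the sense gene from 0.822 to 0.596 RPKM, so that their order turned. The log2 ratio of LURAP1L-AS1 to LURAP1L went from -2.33 ± 0.40 to 0.74 ± 0.21 (SD, n = 5 each, two-sided exact permutation p = 0.00794).

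IGFL2-AS1 was the one member of these 6 pairs that was more abundant than its sense gene in siCtrl cells, with 5.94 RPKM against 0.620 RPKM. It had 19.3, 17.8, 20.5, 23.0 and 18.6 CPM in the 5 siCtrl libraries and 23.1, 25.6, 21.0, 25.7 and 25.8 CPM in the 5 siDDX41 libraries. The groups overlapped, with the highest siCtrl library among the siDDX41 values (log2 fold change 0.30, SE 0.068, Benjamini-Hochberg adjusted p = 4.77e-04 in the edgeR quasi-likelihood test). IGFL2, a gene of the IGF-like family, had 1.30, 1.11, 1.48, 1.67 and 1.97 CPM in the 5 siCtrl libraries and 0.321, 0.348, 0.0402, 0.127 and 0.253 CPM in the 5 siDDX41 libraries. All siDDX41 values were lower than all siCtrl values (log2 fold change -2.77, SE 0.28, Benjamini-Hochberg adjusted p = 8.33e-10 in the edgeR quasi-likelihood test), and the difference between the genes of this pair comes mainly from the fall of the sense gene.

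SH3BP5-AS1 had 6.02, 6.78, 7.37, 6.16 and 5.57 CPM in the 5 siCtrl libraries and 11.1, 9.91, 9.96, 8.22 and 9.53 CPM in the 5 siDDX41 libraries. The groups did not overlap (log2 fold change 0.62, SE 0.083, Benjamini-Hochberg adjusted p = 1.17e-07 in the edgeR quasi-likelihood test). SH3BP5, which encodes an exchange factor for RAB11, had 125, 111, 120.2, 118 and 118 CPM in the 5 siCtrl libraries and 53.2, 61.6, 52.9, 58.0 and 61.0 CPM in the 5 siDDX41 libraries. It was lower in every siDDX41 library (log2 fold change -1.03, SE 0.042, Benjamini-Hochberg adjusted p = 5.56e-17 in the edgeR quasi-likelihood test). The exons of SH3BP5-AS1 share 36.0% of their bases with SH3BP5.

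PLXNB3-AS1 had 0.976, 1.23, 1.23, 1.24 and 1.26 CPM in the 5 siCtrl libraries and 1.65, 1.70, 2.21, 1.86 and 1.39 CPM in the 5 siDDX41 libraries. Every siDDX41 library was above every siCtrl library, by a small margin (log2 fold change 0.58, SE 0.16, Benjamini-Hochberg adjusted p = 0.00149 in the edgeR quasi-likelihood test). PLXNB3, a semaphorin receptor gene, went from 6.90 ± 0.903 to 2.698 ± 0.249 CPM (SD, n = 5 each, log2 fold change -1.34). Of the exon bases of PLXNB3, 20.4% are shared with another counted gene of the same strand, which makes its counts less certain. For NAPA-AS1 and RASAL2-AS1 the sense genes rose slightly. NAPA had 43.2 ± 1.79 CPM with siCtrl and 49.5 ± 2.37 CPM with siDDX41 (SD, n = 5 each) (log2 fold change 0.21), and RASAL2 had 83.0 ± 4.56 CPM with siCtrl and 90.6 ± 3.66 CPM with siDDX41 (SD, n = 5 each) (log2 fold change 0.14) with groups that overlapped.

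For all 6 pairs, the within-library log2 ratio of the member to the sense gene separated the groups completely (two-sided exact permutation p = 0.00794 for each, the smallest possible with 5 against 5 libraries). The pairs had been selected on their difference, so these values describe them and are no independent test. For the pairs of highest CPM, which were selected on level alone, the ratio rose by 0.31 for FGD5-AS1, 0.40 for OIP5-AS1, 0.61 for CCDC144NL-AS1 and 0.44 for LOXL1-AS1, and fell by 0.49 for TENM3-AS1 and 0.57 for GAS6-AS1 (two-sided exact permutation p = 0.00794 for each, n = 5 per group). It fell by 0.29 for PSMA3-AS1 (two-sided exact permutation p = 0.0159, n = 5 per group). For SVIL-AS1 no difference was detectable, with a change of -0.049 (two-sided exact permutation p = 0.532, n = 5 per group). These are 8 of 26 pairs for which the ratio was computed, and the permutation p-values are not adjusted.

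**Figure D4:**
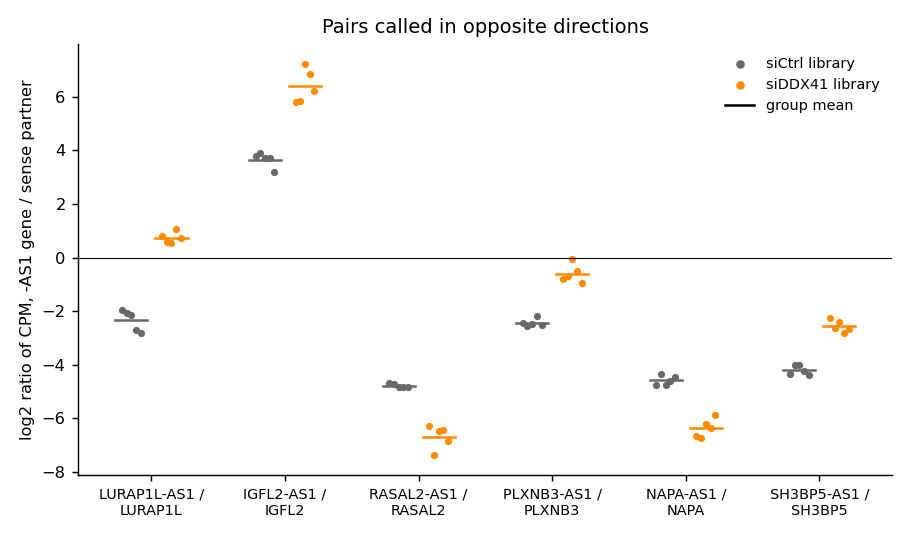
Log2 ratio of the CPM of the member to that of its sense gene, each with 0.1 CPM added (y axis), for the 6 pairs called in opposite directions with the largest difference (x axis). Grey points are siCtrl libraries, orange points siDDX41 libraries and bars group means, and in each pair all 5 points of one group lie beyond all 5 of the other, upward for LURAP1L-AS1, IGFL2-AS1, PLXNB3-AS1 and SH3BP5-AS1 and downward for RASAL2-AS1 and NAPA-AS1.

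The pairs were then grouped by how the genes lie to each other in release 44, a property that the choice of members did not use. Of the 287 lncRNA members, 91 were head-to-head with the sense gene, with 5′ ends on opposite strands at most 1 kb apart. A further 61 started inside the sense gene, more than 1 kb from its start, and ran out past that start. Tail-to-tail overlap was found for 59, 40 lay inside the sense gene and 31 spanned it. The other 5 comprised 3 divergent members with starts more than 1 kb apart, 1 downstream of the sense gene without overlap (IGFL2-AS1) and 1 on the same strand (PYDC2-AS1, named after its value was seen).

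Head-to-head members were called higher in 12 cases (13.2%) and lower in 28 (30.8%), with a median log2 fold change of -0.11. Their 88 tested sense genes were called higher in 31 cases (35.2%) and lower in 27 (30.7%), with a median of 0.0019. At a Benjamini-Hochberg adjusted p under 0.05 in the edgeR quasi-likelihood test, 19 head-to-head members (20.9%) were called higher and 33 (36.3%) lower, beside 34.9% and 35.9% of all tested genes at that threshold. Members that start inside the sense gene were called higher in 19 and lower in 20 of 61 cases, and tail-to-tail members in 14 and 14 of 59. Of the 40 members inside the sense gene, 14 were called higher and 13 lower, with a median of 0.19, and of the 31 spanning members 11 were called higher and 9 lower. At 0.01, the shares were 30.3% and 32.1% of all tested genes. Head-to-head members had a median of 2.31 CPM and members inside the sense gene, of which 35.0% were called higher, one of 2.61 CPM. Of all tested genes, 15.8% were called higher and 27.1% lower from 1 to under 2 CPM, and 21.3% and 31.0% from 2 to under 5 CPM. The part of level in these shares and the differences between arrangements were not tested.

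Opposite calls occurred in each of these arrangements. They were made in 12 of 88 head-to-head pairs, 6 of 58 pairs in which the member starts inside the sense gene, 8 of 52 tail-to-tail pairs, 9 of 34 pairs with the member inside and 3 of 17 with the member spanning the sense gene. Calls in the same direction numbered 16, 14, 6, 7 and 5. Neither set of counts was tested against unrelated calls of the member and the sense gene. The Spearman correlation of the log2 fold changes was 0.046 over the head-to-head pairs, 0.23 where the member starts inside the sense gene, 0.030 over the tail-to-tail pairs, 0.11 with the member inside and 0.20 with the member spanning the sense gene, given as descriptions over genes of the same libraries.

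**Figure D5:**
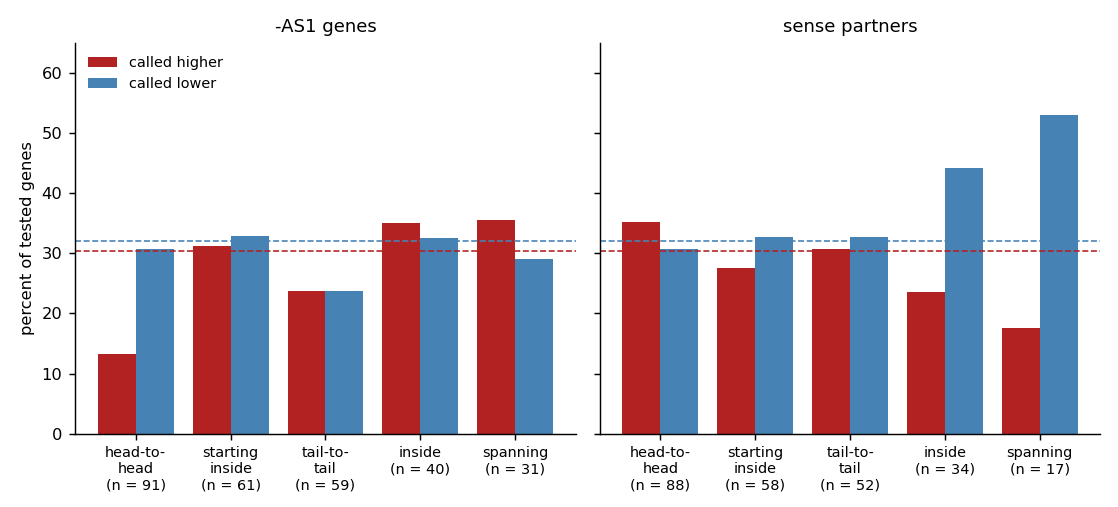
Percent of tested genes called higher (red) and lower (blue) for members (left panel) and sense genes (right panel) in 5 arrangements, with the number tested under each. Dashed lines mark the shares of all tested genes, 30.3% higher and 32.1% lower, and the shortest bar among the members is that of head-to-head members called higher, at 13.2%, with no adjustment for level.

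TMPO-AS1 and TMPO, a head-to-head pair chosen after its values were seen, fell together to unequal extents. TMPO-AS1 had 4.72, 4.97, 5.25, 6.16 and 6.24 CPM in the 5 siCtrl libraries and 1.605, 1.96, 2.17, 1.98 and 1.94 CPM in the 5 siDDX41 libraries. All siDDX41 libraries were lower (log2 fold change -1.48, SE 0.11, Benjamini-Hochberg adjusted p = 1.45e-12 in the edgeR quasi-likelihood test). TMPO, which encodes the lamina-associated polypeptide 2 of the nuclear envelope, had 242 ± 9.35 CPM with siCtrl and 170.2 ± 8.83 CPM with siDDX41 (SD, n = 5 each) (log2 fold change -0.50).

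The promoters of the head-to-head pairs named above are shown for the sequence around both starts. RefSeq promoter windows (GRCh38.p14) run from 250 bases before to 50 bases after a start and were matched by symbol for 228 of the 293 members. Both windows were present for 3 of the head-to-head pairs named for their level or change. TMPO-AS1 and TMPO, added after their values were seen, were not included in this search. The starts of RefSeq differ from those of release 44 that set the arrangement, where TIAM1-AS1 starts 732 bases and STXBP5-AS1 434 bases inside the sense gene. RASAL2-AS1 (chr1:178093944-178094243, minus strand) and RASAL2 (chr1:178093854-178094153, plus strand) share 210 bases of their windows, with starts 111 bases apart, and the member fell while the sense gene rose slightly. TIAM1-AS1 (chr21:31558983-31559282, plus strand) and TIAM1 (chr21:31559038-31559337, minus strand) share 245 bases, with starts 146 bases apart, and only the member was called. STXBP5-AS1 (chr6:147204565-147204864, minus strand) starts 197 bases inside STXBP5 (chr6:147204167-147204466, plus strand), the windows share no base, and both genes rose. Capitals mark GGGCGG, the GC box, or its reverse complement CCGCCC.
RASAL2-AS1: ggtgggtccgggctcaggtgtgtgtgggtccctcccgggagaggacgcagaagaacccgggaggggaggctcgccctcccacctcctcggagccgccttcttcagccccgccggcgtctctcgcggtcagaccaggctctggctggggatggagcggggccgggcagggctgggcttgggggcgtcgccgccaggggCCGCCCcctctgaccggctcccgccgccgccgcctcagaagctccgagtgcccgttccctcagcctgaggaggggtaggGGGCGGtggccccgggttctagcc
RASAL2: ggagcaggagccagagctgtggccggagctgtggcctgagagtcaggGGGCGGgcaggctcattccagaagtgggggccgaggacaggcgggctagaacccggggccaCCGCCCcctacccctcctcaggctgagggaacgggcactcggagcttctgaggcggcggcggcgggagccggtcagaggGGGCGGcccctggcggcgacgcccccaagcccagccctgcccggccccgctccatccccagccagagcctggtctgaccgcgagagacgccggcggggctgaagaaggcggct
TIAM1-AS1: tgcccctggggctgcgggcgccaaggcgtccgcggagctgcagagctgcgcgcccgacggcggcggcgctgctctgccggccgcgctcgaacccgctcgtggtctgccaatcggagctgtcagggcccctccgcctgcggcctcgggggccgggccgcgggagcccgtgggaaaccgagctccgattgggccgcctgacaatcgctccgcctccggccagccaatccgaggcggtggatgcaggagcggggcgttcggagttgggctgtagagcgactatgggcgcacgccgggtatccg
TIAM1: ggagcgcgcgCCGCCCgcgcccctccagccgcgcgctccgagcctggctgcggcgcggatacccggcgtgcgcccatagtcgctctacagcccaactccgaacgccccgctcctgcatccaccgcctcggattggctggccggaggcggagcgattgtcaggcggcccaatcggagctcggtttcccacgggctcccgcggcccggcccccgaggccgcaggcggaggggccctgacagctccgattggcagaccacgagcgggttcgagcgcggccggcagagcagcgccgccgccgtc
STXBP5-AS1: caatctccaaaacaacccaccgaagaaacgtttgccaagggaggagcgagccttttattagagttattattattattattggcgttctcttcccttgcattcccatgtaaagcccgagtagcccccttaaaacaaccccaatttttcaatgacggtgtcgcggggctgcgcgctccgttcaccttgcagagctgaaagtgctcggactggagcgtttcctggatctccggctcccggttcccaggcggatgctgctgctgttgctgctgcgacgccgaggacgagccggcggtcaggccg
STXBP5: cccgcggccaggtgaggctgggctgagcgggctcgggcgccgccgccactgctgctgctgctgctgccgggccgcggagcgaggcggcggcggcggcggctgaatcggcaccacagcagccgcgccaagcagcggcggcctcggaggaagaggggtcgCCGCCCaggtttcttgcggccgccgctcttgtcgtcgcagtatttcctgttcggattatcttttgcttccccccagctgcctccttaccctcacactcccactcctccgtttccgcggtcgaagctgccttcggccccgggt

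The windows were searched on both strands for GGGCGG, for CCAAT (the CCAAT box) and for TATAAA (the TATA box), none of which contains another. RASAL2-AS1 held 2 matches of GGGCGG and RASAL2 held 3, TIAM1 and STXBP5 held 1 each, and TIAM1-AS1 and STXBP5-AS1 held none. CCAAT matched 3 times in TIAM1-AS1, 3 times in TIAM1 and 2 times in STXBP5-AS1, and TATAAA matched in none of the 6 windows. Among 35116 windows of 27305 genes, 45.0% held GGGCGG, 34.6% CCAAT and 11.5% TATAAA. The 91 windows of 77 head-to-head members held them in 64.8%, 24.2% and 5.49%, and the 281 windows of all matched members in 59.4%, 30.2% and 4.98%. The median number of CG dinucleotides was 27 in windows of head-to-head members, 26 in those of their sense genes, 24 in those of all matched members and 14 in all windows. A match is a description of the letters, not a bound site.

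Genes that limit antisense RNA were counted from a list of 27 genes of the nuclear exosome, its adaptors and the cap-binding complex. All 27 were tested, 14 were called higher (51.9%) and 5 lower (18.5%), beside 30.3% and 32.1% of all tested genes and 37.8% and 34.8% of those of 10 CPM or more. The list had a median level of 44.00 CPM and a median log2 fold change of 0.12. None was called with an absolute log2 fold change above 1, and with a further limit of 0.25 on it 5 were called higher and 2 lower, beside 21.1% and 25.4% of all tested genes under the same limit. MPHOSPH6, a cofactor of the nuclear exosome, had 30.6, 28.2, 28.1, 30.0 and 28.0 CPM in the 5 siCtrl libraries and 47.4, 41.0, 43.8, 45.5 and 43.9 CPM in the 5 siDDX41 libraries. The groups did not overlap (log2 fold change 0.62, SE 0.044, Benjamini-Hochberg adjusted p = 2.32e-13 in the edgeR quasi-likelihood test). PHAX, an RNA export adaptor, rose from 73.6 ± 2.23 to 92.1 ± 4.71 CPM (SD, n = 5 each, log2 fold change 0.33), and WDR82, a partner of ZC3H4 in the restriction of extragenic transcription, fell from 262 ± 4.13 to 218 ± 6.74 CPM (SD, n = 5 each, log2 fold change -0.25). The part of these genes in the changes of the members was not tested.

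Other antisense and divergent genes of at least 1 CPM were counted beside the members. Of 143 divergent transcripts (-DT), 29 were called higher and 30 lower (20.3% and 21.0%), with a median log2 fold change of -0.0093. Of 21 genes ending in -AS2 to -AS9, 4 were called higher and 2 lower, and of 8 intronic or overlapping transcripts (-IT1 or -OT1), 1 was called in each direction. Among the members themselves, those with 1 exon were called higher in 6 and lower in 5 of 24 cases, those with 2 to 4 exons in 43 and 48 of 160, and those with 5 or more exons in 24 and 36 of 109. For comparison, the shares called higher and lower were 30.3% and 32.1% over all tested genes and 23.3% and 26.9% over the other lncRNA genes at or above 1 CPM.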

How the data were processed

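RNA was sequenced from 5 siCtrl and 5 siDDX41 libraries of U2OS cells, grouped by their labels. The authors made stranded single-read libraries from polyadenylated RNA, used STAR 2.7 for mapping (hg38, Gencode release 25), and deposited whole-number counts per gene from featureCounts 1.6 without normalization. The strand setting and the treatment of reads with several positions are not given in the sources used here.

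Identifiers without version were joined to GENCODE release 44 on the same build for symbols, exons and arrangement, and 98.7% of the tested genes matched. Gene models may differ from release 25. The count tables went into edgeR 4.0.16 under R 4.3.3, where low counts were removed by filterByExpr, TMM factors set the scaling, and glmQLFit (robust) with glmQLFTest gave p values, with Benjamini-Hochberg adjustment over all 16143 tested genes and a threshold of 0.01, and the steps were tested on simulated data. DESeq2 1.42.0 served as an alternative. Printed CPM are counts divided by the library total. Ratios of members to sense genes were compared by exact permutation in scipy 1.17.1. Alternatives changed test, scaling, filter, threshold, replicate block, libraries, overlap and member level.

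Members and lists were chosen with earlier results of these data known. The named genes are DDX41, the 8 members of highest mean CPM, the 7 members of largest increase and the 7 of largest decrease among those called without overlap, the 3 of highest CPM not called, the 6 pairs of largest difference called in opposite directions, their sense genes, 2 members just inside and 2 genes just outside 1 CPM, and 3 RNA surveillance genes of smallest adjusted p. LMCD1-AS1, TMPO-AS1, their sense genes, CD34, CDH5 and a few genes named as such were added after their values were seen.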

Additional observations from a re-analysis of the deposited data

Results flagged for a closer look

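In 4 of the groups of 5 libraries examined for the named genes, 1 library lay far from the other 4, by the gap to its nearest neighbour relative to the range of the group. Chance gives such a gap in about 1 in 20 groups, and 132 groups were examined. LOXL1-AS1 had 58.0 CPM in siCtrl replicate 4 and 51.5 to 53.2 CPM in the other siCtrl libraries. STEAP3-AS1 had 0.464 CPM in siDDX41 replicate 5 and 0.127 to 0.183 CPM in the other siDDX41 libraries. PLXNB3-AS1 had 0.976 CPM in siCtrl replicate 1 and 1.23 to 1.26 CPM in the others. STEAP3 had 254 CPM in siCtrl replicate 3 and 269 to 274 CPM in the others. Such gaps also occurred in genes outside this count, for example in RUNX2, SPP1 and RAB6C. RUNX2 had 26.1 CPM in siDDX41 replicate 2 and 24.0 to 24.1 CPM in the other siDDX41 libraries. SPP1 had 20.9 CPM in siCtrl replicate 1 and 18.3 to 18.9 CPM in the others. RAB6C had 0.734 CPM in siDDX41 replicate 1 and 0.241 to 0.348 CPM in the others. The cause of these deviations was not tested.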

How the results depend on the processing

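Antisense members called upregulated numbered 71 to 75 and antisense members called downregulated 81 to 89 when each library was left out in turn, sense partners called upregulated 71 to 77, sense partners called downregulated 89 to 93, and pairs called in opposite directions 38 to 41. Over the other alternatives, these counts ran from 21 to 90, 18 to 107, 12 to 101, 18 to 120 and 6 to 60. The lowest were those of genes without a shared exon base. Under DESeq2, 68 of the 73 upregulated and 77 of the 89 downregulated members kept their call, no member was called in the opposite direction under any alternative, and 67 and 78 kept it in all 10 fits without a library. DDX41 had log2 fold changes of -2.04 to -1.96 in those fits. With members of 2 CPM or more, sense partners called upregulated fell to 47 and pairs called in opposite directions to 26, with 195 members and 173 pairs left. Counting only members, sense partners and pairs that share no exon base with another counted gene gave 21 members up and 18 down, 12 sense partners up and 18 down, and 6 pairs in opposite directions, with 55 members, 52 sense partners and 39 pairs left. Of these 55 members, 38.2% were called higher and 32.7% lower, beside 24.9% and 30.4% of all members, 30.1% and 32.5% of all tested genes and 26.0% and 25.6% of other lncRNA genes without a shared exon base, a comparison added after the data were seen. Requiring an absolute log2 fold change over 0.25 left 5 RNA surveillance genes up and 2 down of 27, beside 21.1% and 25.4% of all tested genes, an alternative added after the data were seen, like all for these genes, for the arrangements and for genes named later. Some directions turned. OIP5 had a log2 fold change of 5.4e-05 under DESeq2 and 0.0069 with upper-quartile factors, and -0.032 to 0.015 without 1 library. TIAM1 had -0.0092 with library totals only and -0.011 to 0.020 without 1 library. The change of the log2 ratio to the sense partner was 0.047 for ZMIZ1-AS1 with a pseudocount of 0.5 CPM in place of -0.36 with 0.1 CPM, and without 1 library -0.097 to 0.0045 for SVIL-AS1 and -0.16 to 0.081 for RAMP2-AS1. The cause was not tested. Of the other values for single genes and for further groups, 1458 kept their direction and their side of the threshold, 11 lost and 4 gained a call, and 1 count moved. With the replicate number as a block, 75 members were called upregulated and 86 downregulated. Libraries of the same number do not deviate together, with correlations of -0.049 to 0.041, and only replicate 4 correlated best with its own number, so the numbers do not pair the libraries. Limits are the single cell line, the selection of polyadenylated RNA, and the strand setting, which is not given. Members near 1 CPM hold few counts per library, so small changes in them cannot be told apart from none. Gene models come from a later annotation than the counts, and reads in exons shared by 2 genes of the same strand cannot be assigned here. Transcript ends, RNA stability and transcription were not measured.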
